A study of Homo sapiens with 6 samples.

Results

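Kallikreins are secreted serine proteases that are made as inactive precursors and activate each other in cascades on stratified epithelium, where they cut the adhesion proteins that hold squamous cells together. Their activity is held back by inhibitors: SPINK5 encodes LEKTI, a secreted Kazal-type inhibitor of epidermal kallikreins, and SPINT1 and SPINT2 encode HAI-1 and HAI-2, membrane-bound Kunitz-type inhibitors of matriptase, hepsin and related surface proteases. The 10 genes described here are 7 kallikreins (KLK5, KLK6, KLK7, KLK8, KLK10, KLK11 and KLK13) and the 3 inhibitors, chosen by symbol from a table of 61859 genes, in which each symbol had 1 row. RNA was sequenced from the oral squamous cell carcinoma line OSC19SSZR, which is resistant to sulfasalazine, an inhibitor of the cystine transporter xCT. The comparison is of 3 libraries from cells given control siRNA by lipid transfection and 3 from cells given siRNA against the forkhead transcription factor FOXA1, all harvested 48 h later, so all 6 libraries come from this resistant line and the parental line does not enter the comparison. Nothing in the labels tells whether replicates were grown as separate cultures, so the p-values reflect the spread among 6 libraries that may be technical. In bulk RNA, fewer cells of a type and less RNA per cell cannot be told apart.

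Values are the authors' normalized counts, that is reads of a gene divided by a size factor of the library. Recovered depth was 16510125 to 25732569 reads per library, with the highest in FOXA1 siRNA replicate 2. FOXA1 itself had 1477, 1378 and 1459 normalized counts in the controls and 247, 192 and 189 in the knockdown. Of 9 markers of basal squamous epithelium all had reads, with KRT5 at a mean of 31639 and TP63 at 4917 in the controls, and their summed level was 50185 to 52525 in the controls and 55451 to 58136 in the knockdown. Of 14 markers of suprabasal differentiation 5 had no reads (KRT1, LORICRIN, TGM3, SPRR2A and CRNN), while the highest mean among the 14 was 1384. Their summed level, at 1914 to 2062 in the controls and 1945 to 2460 in the knockdown, overlapped. The summed markers of 3 other cell types were lower in the knockdown libraries, as most members were. Each of these lists had only 1 gene in the test described below. Of all tested genes, 28.1% were lower in every knockdown library than in any control. Fibroblast markers summed to 148 to 165 in the controls and 92.5 to 137 in the knockdown (mostly COL1A1), leukocyte markers to 25.2 to 27.6 and 11.9 to 13.9, and endothelial markers to 542 to 571 and 279 to 302, nearly all of it CDH5. Markers without reads were 2 of 6 for fibroblasts, 2 of 6 for leukocytes and 1 of 4 for endothelium, among them DCN, LUM, MS4A1 and KDR. The part of these lists in the results was not tested.

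The 7 kallikrein members lie in a tandem cluster on chromosome 19 (GRCh38) of 15 kallikrein genes spanning 265 kb, each transcribed from its own start. Windows of 300 bases around annotated starts (250 before and 50 after, RefSeq, GRCh38.p14) were found for 8 of the 10 members, 14 windows in all. KLK8 and SPINT2 had no window in that table. The words TGTTTAC and TGTTTGC, core forms of the forkhead motif, were searched on both strands. Neither stood in any of the 14 windows, against 7.17% of 35116 windows of all genes that held at least 1 of them. Some windows of the same gene overlap, and so few windows cannot show a share below that of all genes. The word TATAA, the core of the TATA box, stood in windows of KLK5, KLK7 and SPINK5 and of no other member, and in 20.4% of all windows. The window of SPINK5 lies inside the span that GENCODE gives that gene, at a start downstream of the GENCODE one. The bases from position -45 to -16 before the first listed start are shown for 5 members, to set the starts with the TATA word beside those without it. Capitals mark TATAA on either strand, and in KLK5 and SPINK5 the matches on the plus and minus strands overlap.
KLK5 (chr19:50953054-50953083, minus strand): agggagcagtgggtggTTATAActcaggcc
KLK6 (chr19:50969607-50969636, minus strand): atcgcgcctgggcctgctccccagcccggg
KLK7 (chr19:50983933-50983962, minus strand): gcatggggcggggggtgaTATAAgaggacg
KLK10 (chr19:51019877-51019906, minus strand): ggcgtttcgggcactgggagaagcctgtat
SPINK5 (chr5:148063935-148063964, plus strand): gtgtcaccagtgctTTATAAaagtaaactg
Within the bases shown, the word began at position -28 in KLK5, -27 in KLK7 and -30 in SPINK5 on the plus strand. The window of SPINK5 also held it at -83 on the plus strand and at -243 on the minus strand. Of the genes with the word, KLK5 was higher, SPINK5 was lower and KLK7, not tested, had lower values without overlap. KLK6 and KLK10, without it, were lower. A match of letters is a description and not a measured binding site.

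After FOXA1 knockdown the kallikreins did not all change alike. KLK5, the most abundant, was slightly higher, KLK6 was slightly lower, KLK10 fell to about 53.8% of the control level, and the scarce KLK7, KLK8 and KLK11 stood at 4.32%, 28.4% and 24.6% of it. Among the inhibitors SPINT1 and SPINK5 fell and SPINT2 was slightly higher. The rises of KLK5 and SPINT2 were below the median change of genes at their level. Their calls ended under 5 and 9 of 16 alternative settings, respectively. In all, 7 of the 10 members had a mean of at least 10 normalized counts and entered the test (limma on log2(normalized count + 1), adjusted over 18460 genes). Of these 7, 5 were called lower (KLK6, KLK8, KLK10, SPINK5 and SPINT1) where 25.0% of all tested genes were, and 2 were called higher (KLK5 and SPINT2) where 26.8% of all tested genes were. The groups did not overlap for those same 5 genes on the lower side, against 28.1% of tested genes, and for KLK5 on the higher side, against 29.5%. The median log2 fold change of the 7 was -0.63, beside 0.0039 over all tested genes. KLK8 passed the filter through its controls alone (mean 24.4, beside 6.93 with FOXA1 siRNA), so its lower call is not independent of the filter. KLK7, KLK11 and KLK13 were below the filter and are described by their reads.

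**Figure D1:**
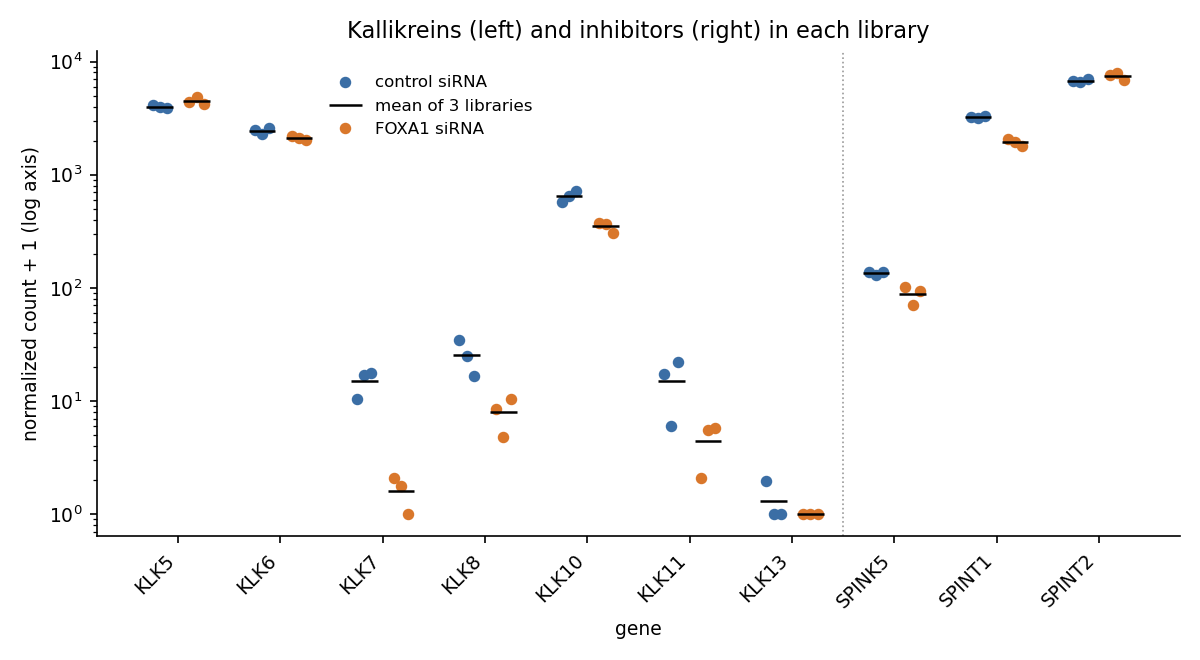
Normalized count + 1 on a log axis for each of the 10 genes in the 3 control siRNA libraries (blue) and the 3 FOXA1 siRNA libraries (orange), with black lines at the means. KLK5, KLK6, SPINT1 and SPINT2 lie above 1000 in every library, while KLK7, KLK8, KLK11 and KLK13 lie below 50.

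KLK5 (ENSG00000167754; chromosome 19, 50943303 to 50953093, minus strand) encodes a trypsin-like protease that can start the epidermal cascade by activating itself and then other kallikreins. It had 4121, 3983 and 3877 normalized counts in the controls and 4422, 4819 and 4199 in the knockdown. Each knockdown library was above each control, although replicates 1 of the control and 3 of the knockdown lay close together. The means were 3993 ± 122 and 4480 ± 314 (SD, n = 3 each), a log2 fold change of 0.16 ± 0.05 (SE; 95% interval 0.06 to 0.27, limma adjusted p = 0.00916). The call ended when totals were made equal across libraries (log2 fold change 0.07, limma adjusted p = 0.288), with quantile normalization (0.03, adjusted p = 0.687), with limma fitted with neither trend nor robust variances (adjusted p = 0.111), without FOXA1 siRNA replicate 2 (0.11, adjusted p = 0.0957) and without control siRNA replicate 3 (0.14, adjusted p = 0.0597). Over 16 alternatives the adjusted p ran from 4.62e-04 to 0.687. Genes of its abundance class, with a mean of at least 3000, had a median log2 fold change of 0.19, so the value of KLK5 was no larger than that of the typical gene at its level.

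KLK6 (ENSG00000167755; chromosome 19, 50958631 to 50969673, minus strand), also called neurosin, is a trypsin-like protease first studied in brain and ovarian tumours. The controls held 2466, 2276 and 2563 normalized counts and the knockdown libraries 2178, 2114 and 2008. All 3 knockdown libraries were below the lowest control. The means of 2435 ± 146 and 2100 ± 85.9 (SD, n = 3 each) gave a log2 fold change of -0.21 ± 0.05 (SE; limma adjusted p = 0.00177), while the median of the 3111 genes with a mean of 1000 to 3000 was 0.09. Fitted by limma with neither trend nor robust variances, the fall missed the threshold (adjusted p = 0.0521). Over 16 alternatives the adjusted p ran from 3.97e-05 to that value.

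KLK10 (ENSG00000129451; chromosome 19, 51012739 to 51020175, minus strand), once named NES1, is a kallikrein often lost in breast tumours. It had 577, 652 and 719 normalized counts in the controls and 376, 367 and 305 in the knockdown. The highest knockdown library was well below the lowest control. The means were 649 ± 70.7 and 349 ± 38.7 (SD, n = 3 each), a log2 fold change of -0.89 ± 0.09 (SE; limma adjusted p = 9.04e-09), and the value stayed between -0.99 and -0.80 over 16 alternatives, all past the threshold.

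KLK8 (ENSG00000129455; chromosome 19, 50996007 to 51002711, minus strand), or neuropsin, is a trypsin-like protease of brain and skin. It was scarce, at 33.3, 24.2 and 15.7 normalized counts in the controls and 7.50, 3.79 and 9.49 in the knockdown. The ranges did not overlap, but they rested on 74 and 20 reads in all. Its log2 fold change was -1.69 ± 0.41 (SE; 95% interval -2.54 to -0.85, limma adjusted p = 0.00111). The ratio of control to knockdown reads, corrected for depth, was 3.82 (exact 95% interval 2.30 to 6.61, for counting error only).

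KLK7 (ENSG00000169035; chromosome 19, 50976482 to 50984099, minus strand) is the chymotrypsin-like stratum corneum enzyme that KLK5 activates. It gave 10, 16 and 16 reads in the controls and 1, 1 and 0 in the knockdown. That is 9.51, 16.1 and 16.7 against 1.07, 0.759 and 0 normalized counts, so the transcript was nearly absent from the knockdown libraries at this depth. The depth-corrected ratio of control to knockdown reads was 21.7 (exact 95% interval 5.64 to 185, for counting error only). In the authors' deposited table its log2 fold change was -4.46 ± 1.23 (SE) with an adjusted p of 0.00120. Without a filter on low values, limma called it lower (log2 fold change -3.26 with a pseudocount of 1, adjusted p = 9.01e-07). That fit takes in genes with hardly any reads, and it gave far smaller p-values to abundant genes too. The limma adjusted p of FOXA1 was 4.50e-243 in it and 3.32e-18 with the filter. The p-value of KLK7 from that fit is therefore not taken as support.

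KLK11 (ENSG00000167757; chromosome 19, 51022216 to 51028039, minus strand), a trypsin-like protease also called hippostasin, had 17, 5 and 20 reads in the controls and 1, 6 and 4 in the knockdown. On the normalized scale these were 16.2, 5.04 and 20.9 against 1.07, 4.55 and 4.74. Control replicate 2 lay only just above the highest knockdown library. The ratio of 42 to 11 reads was 3.94 after correction for depth (exact 95% interval 1.99 to 8.48, for counting error only). The authors' deposited table gives a log2 fold change of -2.00 ± 0.81 (SE) with an adjusted p of 0.0371. Limma without a filter on low values called it lower (log2 fold change -1.70, adjusted p = 0.00537), with the same caution as for KLK7. KLK13 (ENSG00000167759; chromosome 19, 51056206 to 51065114, minus strand), found in differentiated oral and oesophageal epithelium, had 1 read in control replicate 1 and none elsewhere. A count of 0 allows up to 3 reads, so no difference was detectable for KLK13.

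SPINT1 (ENSG00000166145; chromosome 15, 40844018 to 40858207, plus strand) had 3262, 3158 and 3267 normalized counts in the controls and 2058, 1949 and 1784 in the knockdown. The controls lay within a narrow band and every knockdown library was far below it. The means were 3229 ± 61.8 and 1930 ± 138 (SD, n = 3 each), or 59.8% of the control level, with a log2 fold change of -0.74 ± 0.05 (SE; limma adjusted p = 4.15e-12) and a range of -0.84 to -0.69 over 16 alternatives, all past the threshold.

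SPINK5 (ENSG00000133710; chromosome 5, 148025683 to 148137289, plus strand), whose loss causes the skin disease Netherton syndrome, had 138, 129 and 137 normalized counts in the controls and 101, 69.8 and 92.5 in the knockdown. All 3 knockdown libraries were below the controls, and replicate 2, the deepest library, was the lowest. The means were 135 ± 4.84 and 87.7 ± 16.0 (SD, n = 3 each), with a log2 fold change of -0.63 ± 0.15 (SE; limma adjusted p = 9.66e-04). The fold change ranged from -0.74 to -0.48 over 16 alternatives, all past the threshold.

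SPINT2 (ENSG00000167642; chromosome 19, 38244035 to 38292614, plus strand) lies on chromosome 19 but far outside the kallikrein cluster. It had 6754, 6556 and 7015 normalized counts in the controls and 7557, 7947 and 6856 in the knockdown. The groups overlapped, because knockdown replicate 3 lay below control replicate 3. The means were 6775 ± 230 and 7453 ± 553 (SD, n = 3 each) and differed by 0.14 ± 0.05 on the log2 scale (SE; 95% interval 0.03 to 0.24, limma adjusted p = 0.0272), less than the median of 0.19 of its abundance class. The call ended under 9 of 16 alternatives. With quantile normalization the sign turned (log2 fold change -0.042, limma adjusted p = 0.504), and with equal totals the value was 0.04 (adjusted p = 0.562). It also ended with the replicate number as a block (adjusted p = 0.0598), with limma fitted with neither trend nor robust variances (0.187), with edgeR on the recovered reads (0.0606), and without control siRNA replicate 1 (0.0650) or 2 (0.131) or FOXA1 siRNA replicate 1 (0.0688) or 2 (0.187). The adjusted p ran from 4.32e-04 to 0.562 over the 16.

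**Figure D2:**
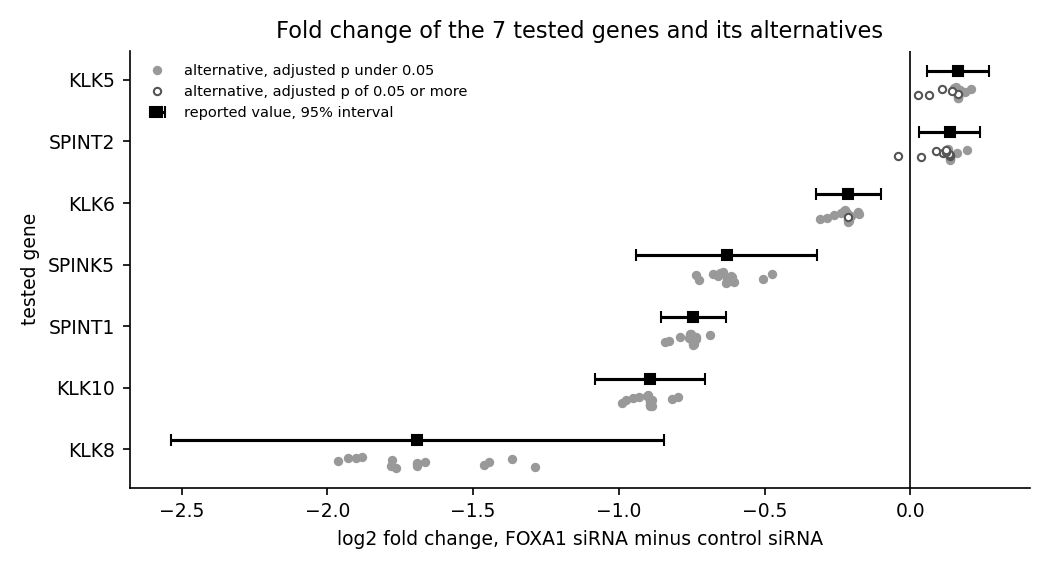
Log2 fold change (FOXA1 siRNA minus control siRNA) of the 7 tested genes, as reported with its 95% interval (black squares) and under each alternative (circles, open where the adjusted p was 0.05 or more). The circles of KLK8, KLK10, SPINT1 and SPINK5 are all filled and left of 0, whereas those of KLK5 and SPINT2 are partly open and lie close to 0.

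Set per length, the members differed widely in level. Normalized counts per kb of annotated exonic sequence (GENCODE release 29, all exons merged) averaged 2416 for KLK5, 1303 for SPINT2, 1232 for KLK6, 912 for SPINT1, 168 for KLK10, 30.7 for SPINK5, 13.1 for KLK8, 5.81 for KLK7, 4.51 for KLK11 and 0.158 for KLK13 with control siRNA. In that order SPINT2 and KLK6 overlapped over the control libraries, at 1261 to 1349 and 1152 to 1297 per kb, and so did KLK7 and KLK11, at 3.91 to 6.88 and 1.62 to 6.72. With FOXA1 siRNA the order of the means was the same except for KLK11, at 1.11 per kb, and KLK7, at 0.251, which overlapped over the knockdown libraries too and rested there on 11 and 2 reads. Which transcript each gene uses here was not measured, and merged exons count rare ones in full.

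The summed level of the kallikreins overlapped between the groups, but the shares of its 3 most abundant members did not. Together the 7 genes came to 3918, 3752 and 3851 normalized counts per kb in the controls and 3880, 4084 and 3642 in the knockdown. KLK5 made up 62.9% ± 1.77 of this sum in the controls and 70.0% ± 1.24 in the knockdown (SD, n = 3 each). KLK6 held 31.9%, 30.7% and 33.7% in the controls and 28.4%, 26.2% and 27.9% in the knockdown, and KLK10 4.39% ± 0.520 and 2.34% ± 0.173. For each of these 3 the shares of the groups did not overlap. Shares of a sum depend on each other, so lower KLK6 and KLK10 alone would raise the share of KLK5. The other 4 kallikreins together held under 1% in every library.

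Proteases and inhibitors were also set against each other within each library, per kb, in ratios chosen after their values were seen and given without a test, as the shares are. KLK5 over SPINK5, an enzyme and its inhibitor, was 79.2, 81.7 and 75.0 in the controls and 116, 183 and 120.3 in the knockdown. All 3 knockdown libraries were above the controls, with replicate 2 highest. SPINT2 over SPINT1 went from 1.43 ± 0.0291 to 2.63 ± 0.139 (SD, n = 3 each), and was higher in every knockdown library than in any control. ST14, the gene of matriptase, over SPINT1 went from 0.708 ± 0.0208 to 0.467 ± 0.00875 (SD, n = 3 each), with every knockdown library below every control.

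Along the cluster the lower values lay next to each other. Of the 15 kallikrein genes 5 were tested, of which 4 were lower and 1, KLK5, was higher, where 25.0% and 26.8% of all tested genes were. From KLK6 through KLK7, KLK8, KLK9 and KLK10 to KLK11, every kallikrein gene was lower in all 3 knockdown libraries than in any control. The same held for 28.1% of all tested genes, and KLK7 and KLK11 were below the filter of the test. For KLK11 the lowest control (5.04) was just above the highest knockdown library (4.74). A same-strand unit, AC011473.4, spans KLK8 and KLK9, and whether their counts share reads was not tested. KLK9, which is no member but sits between KLK8 and KLK10, had 60.9, 58.5 and 36.6 normalized counts in the controls and 13.9, 14.4 and 14.2 in the knockdown (log2 fold change -1.77 ± 0.28, SE; limma adjusted p = 4.70e-06). At the far end KLK14 gave 11 reads with control siRNA and 12 with FOXA1 siRNA. KLK1 gave 1 read in all, and KLK2, KLK3, KLK4, KLK12 and KLK15 gave none. Of 6 tested genes around the cluster 2 rose and 3 fell, where 26.8% and 25.0% of all tested genes did. The count of 3 was 1 without control siRNA replicate 3 and 1 with quantile normalization. C19orf48, beyond KLK1, had a mean of 905 ± 13.9 in the controls and 1801 ± 47.8 in the knockdown (SD, n = 3 each), a log2 fold change of 0.99 ± 0.06 (SE). CTU1, a tRNA thiolation enzyme gene next to KLK14, also rose (0.49 ± 0.09), while JOSD2, a deubiquitinase gene farther out, fell (-0.57 ± 0.09).

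**Figure D3:**
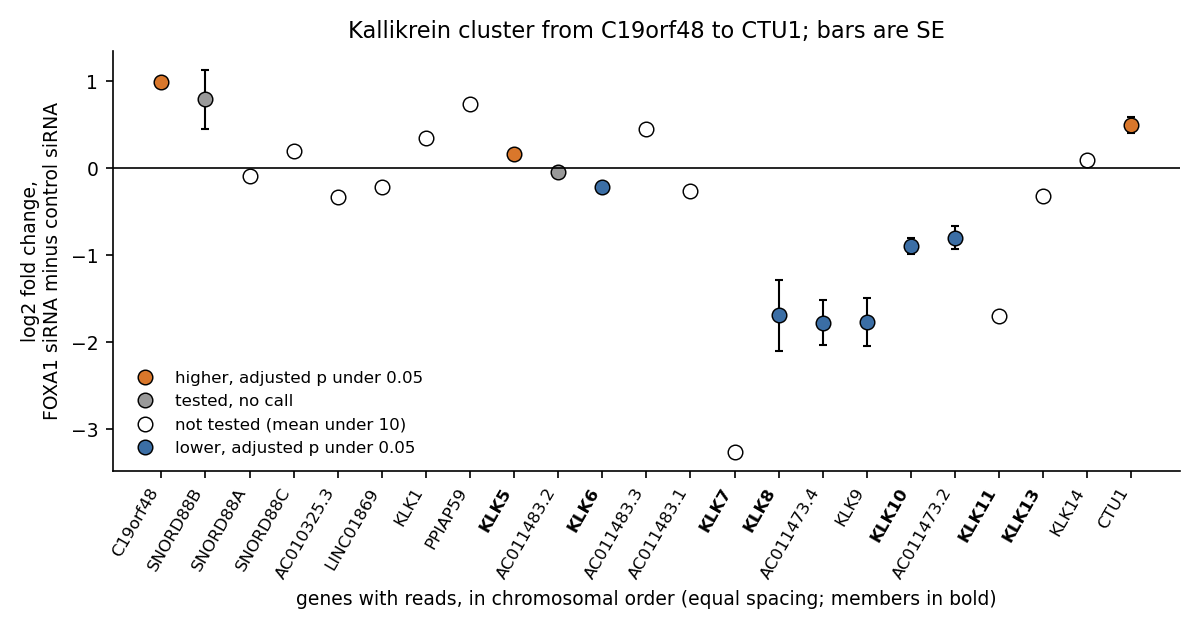
Log2 fold change (FOXA1 siRNA minus control siRNA, on the log2(normalized count + 1) scale) of the genes with reads from C19orf48 to CTU1, in chromosomal order with equal spacing and members in bold. The genes from KLK7 to KLK11 lie below 0, and C19orf48 and CTU1 at the ends lie above it. Error bars are SE of tested genes.

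Several members share exonic bases with other annotated genes, and the sources used here do not say whether the libraries kept strand. AC011483.2, annotated antisense, shares 202 exonic bases with KLK5 and 401 with KLK6, and had 2075, 2000.5 and 2096 normalized counts in the controls and 2063, 2112 and 1838 in the knockdown. AC011473.2, antisense in KLK10 with 240 shared bases, had 161, 191 and 243 in the controls and 113, 113 and 110.3 in the knockdown, lower as KLK10 was. AC011473.4, a transcript unit on the same strand that spans KLK8 and KLK9, covers 40.1% of the exonic bases of KLK8 and had 77.0, 60.5 and 42.9 against 17.2, 16.7 and 15.4. SPINT1-AS1 shares 100 bases with SPINT1, and AC011479.1 shares 242 with SPINT2. How much the counts of these pairs share reads was not tested.

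Other serine proteases of the cell surface, some of them targets of HAI-1 and HAI-2, are given here from a list. Of 26 membrane-anchored and related serine proteases 13 were tested, of which 8 fell and 2 rose, where 25.0% of all tested genes fell and 26.8% rose. The median log2 fold change of the 13 was -0.73, beside 0.0039 over all tested genes. Without a filter on low values 24 were tested, with 2 higher, 9 lower and a median of -0.39. TMPRSS4, a transmembrane protease, went from 4177, 4033 and 4248 normalized counts to 1599, 1497 and 1543 (log2 fold change -1.42 ± 0.05, SE; limma adjusted p = 1.40e-18). ST14 went from 2745, 2814 and 2863 to 1159, 1139 and 1022 (-1.34 ± 0.06; limma adjusted p = 5.04e-17). In both genes the knockdown libraries lay far below all controls. PRSS8, the gene of prostasin, a partner of matriptase named here after its value was seen, also fell (-0.44 ± 0.08), whereas TMPRSS9 (0.95 ± 0.22) and PRSS12, neurotrypsin (0.40 ± 0.09), rose.

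Among other protease inhibitors, 11 of 18 serpins and macroglobulins were tested, with 3 higher and 3 lower, shares near those of all tested genes (26.8% and 25.0%). Their median log2 fold change was -0.06 (0.12 without a filter on low values). SERPINF2, the gene of alpha-2-antiplasmin, fell from a mean of 746 ± 17.4 to 184 ± 8.17 (SD, n = 3 each), a log2 fold change of -2.02 ± 0.08 (SE), and SERPINB13, a serpin of squamous cells, also fell (-1.33 ± 0.20). SERPINE2, protease nexin 1, rose (0.83 ± 0.11). Of 19 other Kazal, Kunitz and WAP inhibitors only SLPI, the secretory leukocyte protease inhibitor, reached the level tested. It had 51.4, 56.5 and 34.5 normalized counts in the controls and 82.5, 87.3 and 106 in the knockdown (0.96 ± 0.20; limma adjusted p = 1.72e-04). SLPI was thus higher in each knockdown library, while SPINK5 and SPINT1 were lower.

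Among 17 substrates and receptors of these proteases 12 were tested, with 3 higher and 2 lower as deposited (2 and 5 with equal totals), where 26.8% and 25.0% of all tested genes were. Their median log2 fold change was 0.04 (-0.06 with equal totals, -0.05 with quantile normalization). Without a filter on low values 16 were tested, with 3 higher, 5 lower and a median of -0.22. SCNN1A, the alpha subunit of the epithelial sodium channel that surface proteases activate by cleavage, fell from a mean of 2769 ± 70.1 to 1336 ± 23.2 (SD, n = 3 each), a log2 fold change of -1.05 ± 0.05 (SE). MET, the receptor of hepatocyte growth factor, rose from 5582 ± 71.6 to 7534 ± 371 (0.43 ± 0.05). F2RL1, the gene of the protease-activated receptor PAR2, rose by a smaller amount (0.32 ± 0.07). Of the corneodesmosome proteins that KLK5 and KLK7 cut, named here after their values were seen, DSC1 fell from 66.7 ± 11.4 to 26.3 ± 7.13 (SD, n = 3 each; -1.33 ± 0.24, SE), DSG1 gave 34 reads with control siRNA and 6 with FOXA1 siRNA and was not tested, and CDSN, at 7.61, 5.04 and 8.37 in the controls and 19.3, 11.4 and 14.2 in the knockdown, did not pass (limma adjusted p = 0.0535).

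**Figure D4:**
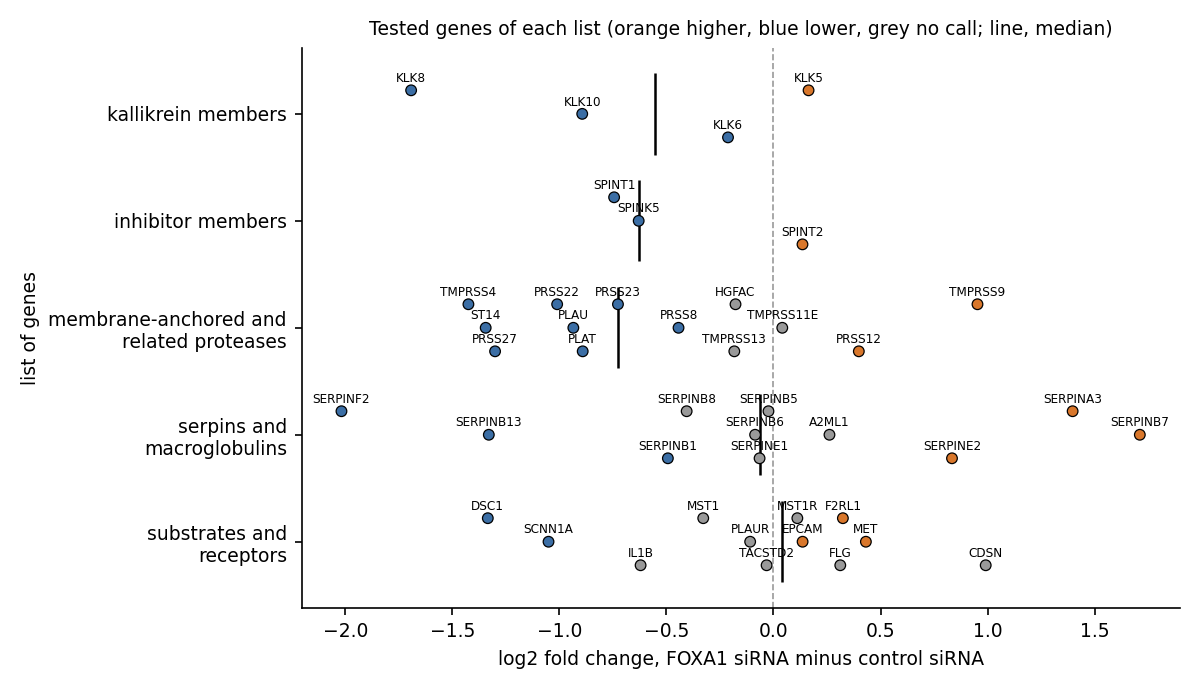
Log2 fold change (FOXA1 siRNA minus control siRNA) of each tested gene of the kallikrein and inhibitor members and of 3 related lists, with black lines at the list medians (orange, called higher; blue, called lower; grey, no call). Most of the membrane-anchored and related proteases lie left of 0, and the serpins spread to both sides.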

How the data were processed

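The deposited table holds 6 columns of normalized signal. Per the file headers it also holds the authors' log2 fold change, its standard error, a test score and p-values, raw and adjusted, per gene. That the signal is gene counts divided by a size factor is taken from the whole multiples described below. Per the submitters' processing notes the builds were GRCh38 and GRCm38, and the tools DESeq2 and HISAT2, with no version given. The counting tool is not given in the sources used here. Of 61862 lines 3 were malformed and left out. Without them 100% of values in each of the 6 columns fell on whole multiples of a step, within 0.01 read, which gave the reads. Limma 3.58.1 (R 4.3.3; trend and robust options) was run on log2(normalized count + 1) for 18460 genes with a mean of at least 10, with Benjamini-Hochberg adjustment at 0.05; low genes' changes are understated on this scale. EdgeR 4.0.16 and DESeq2 1.42.0 on the recovered reads called 9538 and 8493 genes, limma 9571. In simulated counts for 18460 genes limma called 56 of 67 genes changed 1.5-fold, 67 of 67 changed 2-fold, 66 of 66 changed 4-fold and 17 of 18077 unchanged. The changed genes all had a mean of at least 50 and were far fewer than the genes called in the data. The simulation therefore does not cover scarce genes such as KLK8, or changes under 1.5-fold such as those of KLK5, KLK6 and SPINT2. Members and lists were chosen with earlier results of these data known. Named genes are FOXA1, all members, the other kallikreins and, per list, up to 2 rises and 2 falls by size with a mean of at least 50. Exonic lengths and gene positions are from GENCODE release 29 (GRCh38).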

Additional observations from a re-analysis of the deposited data

How the results depend on the processing

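Over 16 alternatives (pseudocounts of 0.5 and 5, no filter, a mean of at least 50, equal totals, quantile normalization, limma with neither trend nor robust variances, the replicate block, each library left out, edgeR and DESeq2 on recovered reads), the count of 5 lower members ranged from 4 to 7. It was 7 without a filter, where KLK7 and KLK11 were added, and 4 with a mean of at least 50, where KLK8 was not tested, and with limma without these variances. The count of 2 higher members was less stable. It was 0 with equal totals, 0 with quantile normalization, 0 with limma fitted with neither trend nor robust variances and 1 with edgeR, and leaving out libraries gave 0 to 2, with 0 without FOXA1 siRNA replicate 2, 1 without FOXA1 siRNA replicate 1 or any 1 control library, and 2 without FOXA1 siRNA replicate 3. The cause was not tested. Among the 7 tested members, the sign turned for SPINT2 alone, with quantile normalization (log2 fold change -0.042). Equal totals moved the median of all tested genes to -0.09. Same-numbered libraries did not deviate together (correlations -0.0102, 0.0109 and -0.0109 for numbers 1, 2 and 3), so the numbers are not taken as a pairing. With the replicate block 1 member was higher and 5 were lower, and 9332 genes were called. Depth limits KLK7, KLK8, KLK11 and KLK13, which rest on 44, 94, 53 and 1 reads.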
